A study of Mus musculus with 4 samples.

Results

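The Fbxw genes described here are 10 F-box genes of mouse oocytes, Fbxw13, Fbxw14, Fbxw15, Fbxw16, Fbxw18, Fbxw20, Fbxw21, Fbxw22, Fbxw24 and Fbxw28, taken by symbol from a table of 16861 genes. All 10 symbols were found, so no member was absent. The data are 4 libraries of germinal vesicle (GV) oocytes from 3-week-old female C57BL/6J mice, freed of cumulus cells, stained with a Hoechst dye in medium with milrinone, which holds them at that stage, and sorted by whether the stained DNA encloses the nucleolus (surrounded nucleolus, SN) or not (non-surrounded nucleolus, NSN). Each group has 2 libraries, each of 15 oocytes, made by Smart-seq2 from poly(A)-primed cDNA with 18 cycles of PCR, and no treatment or allele is named for either group. The sources used here do not say whether the 2 pools of a group came from separate animals, so the p-values measure the spread between these pools, which may be technical.

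An F-box protein is the exchangeable subunit of an SCF ubiquitin ligase. Its F-box binds the adaptor SKP1, which joins it to the scaffold CUL1 and the RING protein RBX1, and in the Fbxw class a WD40 repeat domain holds the substrate that is to be ubiquitinated. In oocytes, where stored proteins and mRNAs have to carry the cell through meiosis and fertilisation with little new transcription, timed proteolysis by this route and by the anaphase-promoting complex is well known. All 10 genes described here are annotated as coding for proteins of the Fbxw class.

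The question of the comparison was whether the transcripts of these genes differ in level between NSN and SN oocytes. Levels are given as FPKM, which divides the read pairs of a gene by its length and by the library's total, so levels of different genes can be set side by side. As recovered from the FPKM, NSN replicate 1 held 17408945 read pairs, NSN replicate 2 17911559, SN replicate 1 17069772 and SN replicate 2 17998361. Every member lay far above the filter of a mean of 0.5 FPKM, and all 10 were tested. The counts behind a member's value ranged from 9252 read pairs for Fbxw13 in NSN replicate 1 to 100600 for Fbxw15 in SN replicate 1. Counting error alone is 1.04% at the lowest of these, and amplified read pairs are not independent molecules, so this error is a lower limit.

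Fbxw15 was the most abundant member, and it ranked 13 of all 16861 genes by mean FPKM. Its level was 3348 and 3207 FPKM in the NSN libraries and 3942 and 3666 FPKM in the SN libraries. Both SN values lay above both NSN values, and the gap between the groups was wider than the distance between the replicates of either. Fbxw24, whose product is known from female meiotic prophase in mice, followed with 3053 and 3173 FPKM in NSN and 3392 and 3088 FPKM in SN oocytes. The highest of these 4 values was SN replicate 1, while SN replicate 2 lay between the NSN replicates, so the groups overlapped.

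Fbxw28 had 2388 and 2161 FPKM in the NSN libraries and 2476 and 2586 FPKM in the SN libraries. The neighbouring Fbxw14 had 2179.6 and 2250.5 FPKM in NSN and 2507 and 2460.4 FPKM in SN oocytes. For both genes the SN values were the higher ones, and for Fbxw28 the gap between the groups was smaller than that between the NSN replicates. The levels of this pair are uncertain, because 44.8% of the 100-base windows of the Fbxw14 transcript and 46.2% of those of Fbxw28 also occur in another annotated gene, each of them in the other gene of the pair. The authors kept only read pairs above a minimum mapping quality, so pairs from such stretches may have been dropped or placed on either gene.

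Fbxw18 stood at 1125 and 1146 FPKM in the NSN libraries and 1189.6 and 1124 FPKM in the SN libraries. The SN replicates enclosed both NSN values, so the groups overlapped. Fbxw20 had 949.8 and 984 FPKM in NSN and 1056 and 1057 FPKM in SN oocytes, 2 SN values that were almost the same and above both NSN values. Fbxw16 had 915 and 878 FPKM in the NSN libraries and 1108 and 1034 FPKM in the SN libraries. Its groups were the furthest apart among the 10 genes in relative terms, with both SN libraries high.

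Fbxw21 had 760.1 and 790.2 FPKM in the NSN libraries and 935 and 857 FPKM in the SN libraries, again with both SN values on top. Fbxw22 had 451 and 492 FPKM in NSN and 488 and 459.9 FPKM in SN oocytes. Here the SN values lay inside the NSN range. Fbxw13, the least abundant member, had 358 and 349.9 FPKM in the NSN libraries and 409 and 398 FPKM in the SN libraries. Its groups did not overlap, and its replicates lay close together in both.

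**Figure D1:**
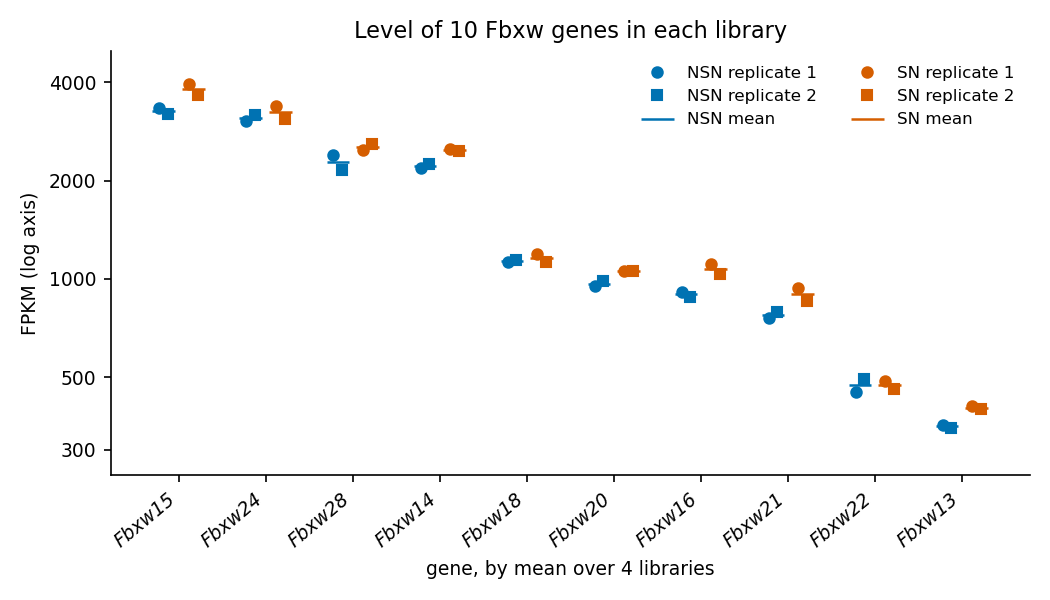
Level of the 10 Fbxw genes in FPKM, on a log axis, in each of the 4 libraries, with circles for replicate 1, squares for replicate 2 and bars for the mean of the 2 libraries of a group. The genes span from 3541 FPKM for Fbxw15 to 379 FPKM for Fbxw13 as means of 4 libraries. The distance between NSN and SN is small beside this whole span, but not beside the distance between some neighbours in level, such as Fbxw16 and Fbxw20.

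The order of mean levels was nearly the same in both groups. From the top it ran Fbxw15, Fbxw24, Fbxw28, Fbxw14, Fbxw18, Fbxw20, Fbxw16, Fbxw21, Fbxw22 and Fbxw13 in the NSN libraries, and in the SN libraries Fbxw16 stood above Fbxw20. The mean level of Fbxw15 over the 4 libraries was 9.35 times that of Fbxw13. Fbxw28 and Fbxw14 did not differ beyond their spread, with group means of 2275 ± 161 and 2215 ± 50.1 FPKM (SD, n = 2) in NSN oocytes and 2531 ± 77.1 and 2484 ± 32.9 FPKM (SD, n = 2) in SN oocytes. Fbxw16 and Fbxw20 did not differ beyond their spread in SN oocytes, with means of 1071 ± 52.7 and 1057 ± 0.617 FPKM (SD, n = 2). All other neighbours in the order had libraries that did not overlap within a group. This is a description of genes measured in the same 2 libraries and was not tested. The widest step was between Fbxw14 and Fbxw18, with a ratio of means of 1.95 in NSN and 2.15 in SN oocytes.

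A level per length rests on the length that the authors used. For 8 of the 10 genes the length recovered from the FPKM was that of the canonical transcript in the annotation. For Fbxw21 it was 2427 bases against 2262, and for Fbxw28 it was 1843 bases against 1497. On the canonical length, an alternative chosen after the data were seen, the level of Fbxw28 would be 2800.4 FPKM in NSN and 3116 FPKM in SN oocytes, above Fbxw14 and below Fbxw24 as means, though in SN replicate 2 its 3183 FPKM would stand above the 3088 FPKM of Fbxw24.

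Together the 10 genes took 2.56% of the read pairs in NSN replicate 1 (95% Wilson interval 2.55% to 2.56%) and 2.54% in NSN replicate 2 (2.53% to 2.55%). In the SN libraries they took 2.88% (2.87% to 2.89%) and 2.76% (2.75% to 2.77%). The intervals cover counting error only. The shares of both SN libraries were above those of both NSN libraries, and the SN replicates differed from each other by more than the NSN replicates did. As many as 8 of the 10 genes were among the 100 most abundant genes of the table, and the other members, Fbxw22 and Fbxw13, ranked 132 and 172. The median member had 1037 and 1065 FPKM in the NSN and 1149 and 1091 FPKM in the SN libraries, where the median gene tested had between 4.07 and 4.73 FPKM.

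SN and NSN oocytes were compared with limma on log2(FPKM + 0.5), and a gene was called when its Benjamini-Hochberg adjusted p was under 0.05 and its fold change at least 1.2. Of the 10 Fbxw genes 0 were called by limma, against 7.93% of the 11672 genes tested, of which 695 were called higher and 231 lower in SN oocytes. The call of all genes rests on single libraries, since limma called 0 genes without NSN replicate 1 and 1685 without NSN replicate 2, 148 without SN replicate 1 and 11 without SN replicate 2. The balance of directions rests on the scaling and on single libraries too, with 78 higher and 179 lower under median scaling, 74 and 156 under quantile normalization, 752 and 963 by limma voom with median scaling, 51 and 97 without SN replicate 1 and 4 and 7 without SN replicate 2. At an unadjusted p under 0.05, limma gave 5 of the 10 genes, Fbxw13, Fbxw14, Fbxw15, Fbxw16 and Fbxw21, which is 50% beside 31.7% of all genes tested. This count was 0 under median scaling, by limma (27.1% of all genes) and by limma voom (29.9%). It was 8 by limma under quantile normalization (27.1%) and 5 by limma voom with total scaling (34.5%). By limma it was 0 without a variance trend (29.5% of all genes), 3 with the replicate block (29.2%), 3 with all listed genes (24.3%) and 4 with the filter at 5 FPKM (43.3%). It was 0 without NSN replicate 2 (32.1%), 1 without NSN replicate 1 (19.5%), 2 without SN replicate 1 (24.1%) and 5 without SN replicate 2 (23.0%). Limma voom on the recovered read pairs called 0 of the 10 genes with total scaling, against 19.8% of all genes, and 0 with median scaling, against 14.7%. On the deposited scale, in 7 of the 10 genes both SN libraries lay above both NSN libraries, where 44.8% of all genes tested did so, and in 0 both lay below, where 17.8% of all genes did.

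The difference was positive for each of the 10 genes on the deposited scale, from 0.01 for Fbxw22 to 0.26 for Fbxw16 on the log2 scale, where 66.7% of all genes tested were positive. Its median over the members was 0.16, beside a median of 0.14 over all genes tested, and both were 0.01 under median scaling. With quantile normalization the medians stood apart, at 0.21 for the members and 0.02 for all genes, so the place of the 10 genes among genes in general rests on the scaling. On libraries scaled by their median gene the sign turned for Fbxw18, Fbxw20, Fbxw22 and Fbxw24. Fbxw16 had the largest difference on the deposited scale, 0.26 (SE 0.07, limma adjusted p = 0.0721, 95% interval 0.08 to 0.43), with SN above NSN in each comparison of libraries. For Fbxw15 it was 0.21 (SE 0.07, limma adjusted p = 0.103), and for Fbxw21 0.21 (SE 0.07, limma adjusted p = 0.117). Fbxw13 differed by 0.19 (SE 0.07, limma adjusted p = 0.117) and Fbxw14 by 0.17 (SE 0.07, limma adjusted p = 0.143). Fbxw28, Fbxw20 and Fbxw24 followed with 0.16, 0.13 and 0.06, and Fbxw18 and Fbxw22 were the nearest to no difference on the deposited scale with 0.03 and 0.01. The limma adjusted p of these 5 genes ran from 0.216 to 0.959. Under median scaling Fbxw28 was the nearest to no difference, with 0.0008. On the deposited scale without a library its difference ran from 0.0835 (NSN replicate 2 left out) to 0.2275 (NSN replicate 1 left out).

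The size of difference that these libraries allow also rests on the scaling. On the deposited scale the 95% intervals of the 10 genes reached from a fold of 0.883 at the lowest to 1.35 at the highest. For 3 genes, Fbxw18, Fbxw22 and Fbxw24, the whole interval lay within a fold of 1.2 in either direction. For the other 7 genes it reached past a fold of 1.2 upwards, and for none downwards. The interval of each of the 10 genes held 0.14, the median of all genes tested. Under median scaling the intervals reached from a fold of 0.793 to 1.24, with 5 of them within a fold of 1.2, and each held the median of all genes. Under quantile normalization they reached from 0.910 to 1.56, with 0 within a fold of 1.2, and those of 8 genes, all but Fbxw18 and Fbxw22, lay above the median of all genes.

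**Figure D2:**
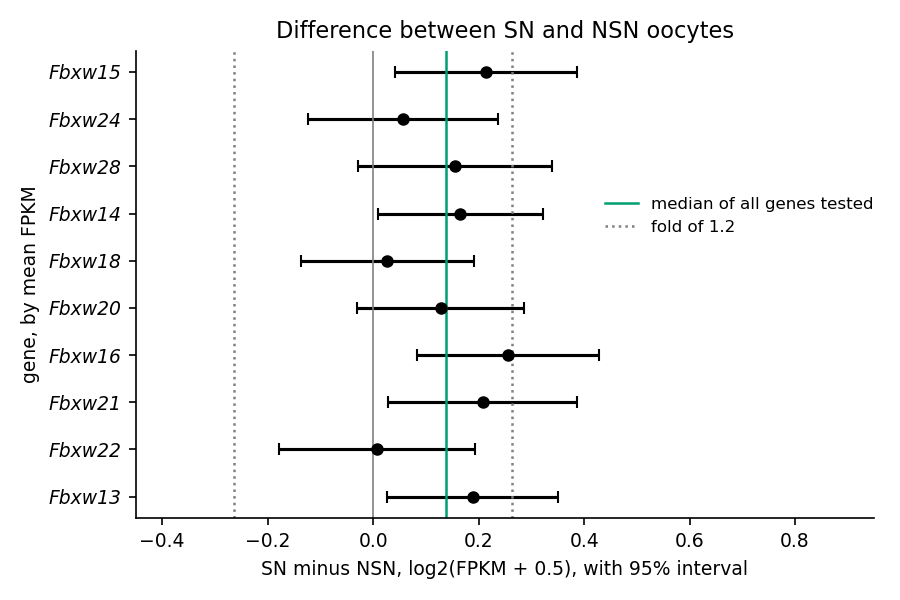
Difference between SN and NSN oocytes for the 10 Fbxw genes as log2(FPKM + 0.5), with 95% intervals of limma from 2 libraries per group. The green line marks the median of all genes tested, 0.14, the dotted lines a fold of 1.2, and every interval on this scale holds the green line, while with quantile normalization 8 lie above the median of all genes, and on libraries scaled by their median gene the differences of Fbxw18, Fbxw20, Fbxw22 and Fbxw24 are below 0.

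The sign of the smaller differences rests on how libraries are scaled. FPKM is relative to the total of a library, and the total RNA of the oocytes was not measured here. When each library was scaled by its median gene, the median of all genes moved from 0.14 to 0.01 and that of the 10 genes from 0.16 to 0.01. The differences then ran from -0.15 for Fbxw22 to 0.10 for Fbxw16, with 6 of the 10 above 0, and those of Fbxw18, Fbxw20 and Fbxw24 were -0.13, -0.03 and -0.10. With quantile normalization Fbxw15 was called, with a difference of 0.51 (limma adjusted p = 0.0440), where its limma adjusted p over all alternatives ran from 0.0440 to 0.713. By limma voom with total scaling its adjusted p was 0.0445, and its difference of 0.21 stayed short of a fold of 1.2. The limma adjusted p of Fbxw16 ran from 0.0295 to 0.492, and where it was under 0.05 the fold stayed short of 1.2.

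Replicates of one group differed little. On the log2 scale the distance between the NSN replicates was 0.06 at the median of the 10 genes and 0.14 at most, for Fbxw28. Between the SN replicates it was 0.08 at the median and 0.14 at most, for Fbxw24. SN replicate 1 was the higher one for 8 of the 10 genes, all but Fbxw20 and Fbxw28, whereas NSN replicate 1 was the higher one for 4.

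All 10 genes lie on chromosome 9 in the build of the files, GRCm39, within an array of 15 Fbxw genes that spans chr9:108968515-109619738. Each of the 15 is annotated on the minus strand. The members extend over 563 kb, from Fbxw21 (chr9:108968515-108991109) to Fbxw18 (chr9:109505802-109531768). The gaps between neighbouring genes of the array measured from 12.1 to 38.7 kb. The most abundant members are adjacent in pairs, Fbxw15 (chr9:109381670-109397330) beside Fbxw24 (chr9:109430184-109455125), and Fbxw14 (chr9:109099858-109116744) beside Fbxw28 (chr9:109151954-109168727). Neighbours could also differ in level, as Fbxw22 (chr9:109207468-109233364), at 473 FPKM, lies next to Fbxw28, at 2403 FPKM. Whether level follows position along the array was not tested.

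The 5 other genes of the array were Fbxw19, Fbxw23, Fbxw25, Fbxw26 and Fbxw27. Limma called 0 of them (7.93% of all genes), with 0 at an unadjusted p under 0.05 (31.7%). This unadjusted count was 1 with all listed genes (24.3%) and 2 with the filter at 5 FPKM (43.3%). Limma voom called 0 with total scaling (19.8%) and 0 with median scaling (14.7%). On the deposited scale all 5 differences were positive (66.7% of all genes), with a median of 0.12. In 3 of the 5 both SN libraries lay above both NSN libraries (44.8%). For Fbxw27 limma voom used read pairs that may be too few by a common factor, since the length recovered with them was 376 bases against 1504 of the canonical transcript. Fbxw19 had 700.0 and 708 FPKM in NSN and 834 and 698 FPKM in SN oocytes, and Fbxw27 had 586 and 603 FPKM in NSN and 597 and 633 FPKM in SN oocytes. Both stood within the range of the 10 genes. Fbxw26 had a mean of 354 FPKM, Fbxw23, which is annotated as a transcribed pseudogene, 123 FPKM, and Fbxw25 84.2 FPKM. Exons of Fbxw23 overlap those of other annotated genes on its strand over 1010 bases, and exons of Fbxw26 and Fbxw27 overlap antisense ones, so these levels are uncertain. So the members were not set apart from the rest of the array by a gap in level, and the lowest of them, Fbxw13, stood below Fbxw19 and Fbxw27.

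**Figure D3:**
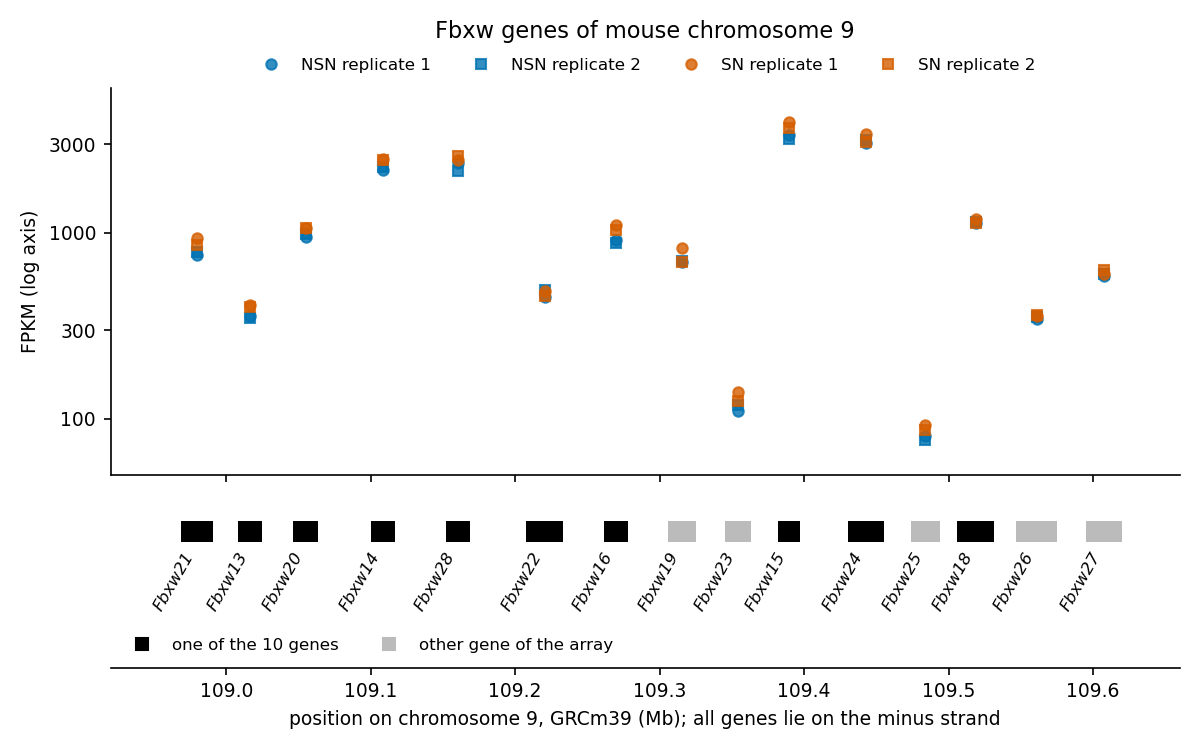
The array of Fbxw genes on chromosome 9 in GRCm39, with FPKM on a log axis in each of the 4 libraries above and the extent of each gene below, in black for the 10 genes described and in grey for the 5 others. Fbxw15 and Fbxw24 have the highest levels, 3541 and 3177 FPKM as means of 4 libraries, and Fbxw25 the lowest, 84.2 FPKM.

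Around the array, 23 other listed genes lie on chromosome 9 within 500 kb of the outermost members or between them. Their highest mean level was 19.3 FPKM, for Nme6, and their median 1.19 FPKM, so each of them stood below every one of the 10 genes. Of the 17 that passed the filter limma called 1, Uqcrc1 of the respiratory chain, which fell from 11.9 to 6.25 FPKM (log2 change -0.88, limma adjusted p = 0.0364), and which median scaling, quantile normalization and limma voom with either scaling also called. It was not called with all listed genes, without a variance trend, or without NSN replicate 1, SN replicate 1 or SN replicate 2. Fbxw genes on other chromosomes were also low. Fbxw17 had a mean of 13.9 FPKM and Fbxw4 of 10.7 FPKM, and the means of Fbxw10, Fbxw5, Fbxw7, Fbxw9, Fbxw8 and Fbxw11 lay between 1.18 and 2.18 FPKM. Fbxw2, at 0.414 FPKM, did not pass the filter. Btrc, the F-box protein of beta-catenin turnover, had 37.5 FPKM. Limma called 0 of the 9 genes of this group that were tested, with 2 at an unadjusted p under 0.05, Fbxw5 and Fbxw11. Limma voom called both of these, each lower in SN oocytes, and with median scaling also Btrc.

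The transcripts of the 10 genes are close relatives. In the annotation the canonical transcripts hold 9 or 10 exons and 1485 to 2262 bases, and their open reading frames encode 432 to 469 residues. Fbxw21 has the longest transcript and the shortest reading frame. The reading frames of the 45 pairs of members were identical at 82.4% to 99.1% of aligned bases, with a median of 85.5%. The extremes were Fbxw24 with Fbxw28 at the lower end and Fbxw14 with Fbxw28 at the upper end, and next came Fbxw14 with Fbxw22 at 93.0%.

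Such likeness bears on the counts. Besides Fbxw14 and Fbxw28, windows of 100 bases that also occur in another annotated transcript made up 8.30% of Fbxw16, 7.31% of Fbxw15, 2.13% of Fbxw21, 1.44% of Fbxw13, 1.06% of Fbxw20 and 0.916% of Fbxw18. Fbxw22 and Fbxw24 had 0 such windows. In Fbxw15 and Fbxw16 the sharing was mostly with antisense genes whose exons overlap theirs, Gm42756 over 168 bases and Gm42494 over 210 bases. The authors counted without regard to strand, so reads of such overlaps cannot be told apart, and Fbxw15 and Fbxw16 are uncertain to that extent. Gm42756 was listed at 0.128 to 0.214 FPKM.

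The promoters were alike too. RefSeq sequence on GRCm38.p6, from 250 bases before to 50 after the gene start, was found for 8 of the 10 members, and not for Fbxw13 and Fbxw22. The 28 pairs of these promoters were identical at 85.9% to 97.7% of 277 to 299 aligned bases, with a median of 90.9%. Fbxw16 and Fbxw20 were the least alike pair and Fbxw14 and Fbxw28 the most alike. Runs of identical bases common to all 8 were tgtggacttaggccac, of 16 bases, which starts 11 to 32 bases into the gene, and aaatctttggcc, of 12 bases, which starts 26 to 47 bases before it. Of the 11425 listed genes with a promoter, 10 held each run, the 8 members among them by construction. Beyond the 8 members these were Fbxw25 and Fbxw26 for the longer run and Fbxw19 and Fbxw26 for the shorter.

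Motifs named for factors of the oocyte and for the core promoter were searched on both strands. The E-box (CANNTG), the element bound by factors such as Figla, occurred in each of the 8 promoters with 2 to 5 matches. Of all 11425 promoters 66.0% held at least 1 match and 31.9% at least 2. The form CAGCTG, picked as the most frequent in these same 8 promoters, accounted for 15 of the matches. It stood 2 times in 7 of the 8 promoters, where 1.75% of all promoters hold it 2 or more times. Fbxw19, Fbxw25 and Fbxw26 of the array also hold it 2 times each. As the promoters are close relatives, their matches are not independent, and whether the form is enriched was not tested. The Nobox element (TAATTG) occurred in 0 of the 8 and in 5.68% of all promoters. The Lhx8 element (TGATTG) occurred in 1, Fbxw16, and in 15.2% of all promoters. The TATA box (TATAAA) occurred in 0 of the 8 and in 8.23% of all. A match describes letters in a window and not the binding of a factor.

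The promoters of the most abundant genes, Fbxw15 and Fbxw24, and of the least alike pair, Fbxw16 and Fbxw20, are printed to show how far the likeness goes. They lie on the minus strand at chr9:109568213-109568512, chr9:109626010-109626309, chr9:109449091-109449390 and chr9:109234705-109235004 of RefSeq's GRCm38.p6. They are written 5′ to 3′, and capitals mark the E-boxes and, in Fbxw16, also the Lhx8 element on the opposite strand.
Fbxw15: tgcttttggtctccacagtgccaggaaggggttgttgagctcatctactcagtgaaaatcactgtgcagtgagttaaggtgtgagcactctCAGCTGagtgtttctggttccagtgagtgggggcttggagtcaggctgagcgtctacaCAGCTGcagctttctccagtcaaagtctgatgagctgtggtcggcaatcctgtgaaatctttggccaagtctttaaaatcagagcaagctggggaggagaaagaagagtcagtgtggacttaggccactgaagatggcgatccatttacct
Fbxw24: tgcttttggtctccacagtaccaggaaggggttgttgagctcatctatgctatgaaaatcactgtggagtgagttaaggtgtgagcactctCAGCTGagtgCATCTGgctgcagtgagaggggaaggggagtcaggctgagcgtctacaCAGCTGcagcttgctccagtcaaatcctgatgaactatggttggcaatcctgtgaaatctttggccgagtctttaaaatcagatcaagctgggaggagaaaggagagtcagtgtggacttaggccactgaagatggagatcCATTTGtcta
Fbxw16: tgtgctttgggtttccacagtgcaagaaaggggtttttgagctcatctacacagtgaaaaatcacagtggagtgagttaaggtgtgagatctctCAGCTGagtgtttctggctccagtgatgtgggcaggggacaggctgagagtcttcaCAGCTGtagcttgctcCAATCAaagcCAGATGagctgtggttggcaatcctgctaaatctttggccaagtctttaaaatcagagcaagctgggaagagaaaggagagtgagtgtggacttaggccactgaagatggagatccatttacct
Fbxw20: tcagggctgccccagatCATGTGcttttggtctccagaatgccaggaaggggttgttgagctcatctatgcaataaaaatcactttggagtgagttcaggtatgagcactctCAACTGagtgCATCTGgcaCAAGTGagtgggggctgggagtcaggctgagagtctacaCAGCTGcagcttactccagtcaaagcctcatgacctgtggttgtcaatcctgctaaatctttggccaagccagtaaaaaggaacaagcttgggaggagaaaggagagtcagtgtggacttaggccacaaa

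Partners of the SCF ligase were compared from a list of 34 symbols, of which 32 were listed and 31 tested. Limma called 5, with 3 higher and 2 lower in SN oocytes, which is 16.1% beside 7.93% of all genes, and the median difference over the 31 genes was 0.15. Without NSN replicate 1, SN replicate 1 or SN replicate 2, limma called 0 of them. The adaptor Skp1 had 4740.4 and 4726 FPKM in NSN and 3982 and 3829 FPKM in SN oocytes, above every Fbxw gene in each group. Its difference was -0.28 (limma adjusted p = 0.0526), short of a call, and 0.02 with quantile normalization, whereas limma with the filter at 5 FPKM and limma voom with either scaling called it lower. Over the alternatives its limma adjusted p ran from 0.00742 to 0.809. Cul1 had means of 394 FPKM in NSN and 339 FPKM in SN oocytes, a difference of -0.21 (limma adjusted p = 0.139), and was called lower by limma voom with median scaling alone, at -0.37 (adjusted p = 0.0245, with a range of 0.0245 to 0.569 over the alternatives). The RING subunit Rbx1 rose from 16.3 to 22.9 FPKM, by 0.48 on the log2 scale (limma adjusted p = 0.0448). Called genes of the list were also Arih1 at 0.56 and Cops2 at 0.33, which were higher in SN oocytes, and Cops8 at -0.46 and Ube2d3 at -0.36, which were lower. Of these 5 genes median scaling kept Cops8 and Ube2d3, quantile normalization and the replicate block each kept Cops8 alone, and limma voom called all 5 with total scaling and Arih1, Cops8 and Ube2d3 with median scaling. Skp1 and Cul1 thus stood lower in both SN libraries while the summed level of the 10 Fbxw genes stood higher, from 15528 and 15431 FPKM in NSN to 17503 and 16731 FPKM in SN oocytes on the deposited scale. With median scaling the differences of Skp1 and Cul1 were -0.43 and -0.37, beside a median of 0.01 for the 10 genes. Whether the directions differ was not tested.

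Other listed genes with an Fbxw, Fbxo or Fbxl symbol, those of the array included, together with Btrc, Skp2 and Ccnf, numbered 63, of which 55 were tested. Limma called 2 of them, which is 3.64%, both higher in SN oocytes, and the median difference was 0.10. Fbxo28 rose from 18.5 to 31.9 FPKM (log2 change 0.78, limma adjusted p = 0.0375), and Fbxo11 rose from 14.6 to 22.5 FPKM (log2 change 0.61, limma adjusted p = 0.0372), and neither was called with median scaling or quantile normalization, whereas both were called with the replicate block and by limma voom with either scaling. Without NSN replicate 1, SN replicate 1 or SN replicate 2, limma called 0 of the 55, and without NSN replicate 2 it called 4. Fbxo5, known as Emi1, and Fbxo43, known as Emi2, both inhibitors of the anaphase-promoting complex, had means of 179.9 and 52.1 FPKM. Fbxo34, Fbxo30, Ccnf and Skp2 had 97.3, 13.8, 6.42 and 1.30 FPKM, and limma called 0 of these 6, with 1 at an unadjusted p under 0.05, Fbxo30, and 0 by limma voom with either scaling.

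The libraries carried the markers of oocytes, most of them lower in SN oocytes. Of 15 oocyte markers 14 were listed, Sohlh1 not being among them, and limma called 9, each lower in SN oocytes, where 1.98% of all genes tested were called lower. Gdf9, an oocyte growth factor, fell from 5084 to 2432 FPKM, and Zp3 of the zona pellucida from 7172 to 5316 FPKM. Nobox and Lhx8, whose elements were searched in the promoters, had means of 239.9 and 130.2 FPKM, with Nobox called lower. The count of 9 was 5 with median scaling and 4 with quantile normalization, with 0 called higher in each. Limma voom called 10 lower and 1, Kit, higher with total scaling, and 11 lower and 0 higher with median scaling. The count called lower ranged from 0 to 11 over all alternatives. The 0 came with all listed genes, without a variance trend and without NSN replicate 1, and without SN replicate 2 it was 1. The summed level of the oocyte markers was 25447 and 23953 FPKM in the NSN and 17674 and 17055 FPKM in the SN libraries.

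The listed markers of other cell types each stood below every one of the 10 Fbxw genes. Of 15 granulosa and cumulus markers 8 were listed, with summed levels of 9.48 and 13.6 FPKM in NSN and 13.8 and 13.7 FPKM in SN libraries. Cyp19a1 was the most abundant, at 5.81 to 8.38 FPKM, above the median gene tested in each library, and Foxl2, Amh and Amhr2 were not listed. The 4 listed theca and stroma markers summed to 1.15 to 3.04 FPKM, led by Dcn, and Pecam1, the listed marker of 5 for blood and endothelium, had 4.49 to 4.96 FPKM. Limma called 0 of these markers, of which 6 passed the filter, with Dcn alone at an unadjusted p under 0.05. Dcn was called, as higher in SN oocytes, by limma voom with total scaling and by limma without NSN replicate 2. Their part in the levels of the Fbxw genes was not tested. Each library was made from 15 oocytes, whereas for the other cell types the number of cells and the RNA per cell cannot be told apart.

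Genes whose profile over the 4 libraries was nearest to the mean profile of the 10 Fbxw genes were sought among 3903 tested genes with a mean of at least 10 FPKM and no Fbxw symbol. The nearest were Mysm1, Ywhae, Mindy3, Cript and Svip, with root mean square distances of 0.00865 to 0.0129 on the log2 scale. The mean profile itself, relative to each gene's mean, was -0.07 and -0.07 in the NSN and 0.10 and 0.04 in the SN libraries. With 4 libraries such a likeness is easily met, and 1296 of the 3903 genes lay within a distance of 0.1.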

How the data were processed

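The authors trimmed reads with Trim Galore 0.6.10, mapped them to GRCm39 with HISAT2 and counted read pairs on exons with featureCounts, keeping primary alignments above a minimum mapping quality, without strand. The deposited values are FPKM, computed by the authors. DESeq2, which the authors ran on their counts, was not used here. Read pairs dropped by the mapping filter may lower the FPKM of near-identical genes, and poly(A) priming makes the values depend on tail length, which was not measured.

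Here, library totals were recovered from 5 mitochondrial tRNA genes, and lengths and whole read pairs, to within 1e-05 of a pair, for 99.9% of genes. A factor common to a gene's length and all its read pairs cannot be seen in FPKM, so such genes, Fbxw27 among them, enter limma voom with too few read pairs. Positions, exons and transcripts came from a GENCODE annotation of GRCm39 (97.8% of the listed symbols were found there exactly once). The 11672 genes whose FPKM averaged 0.5 or more were tested for a difference between SN and NSN on log2(FPKM + 0.5), using lmFit and eBayes (with a variance trend) of limma 3.58.1 under R 4.3.3. The scale understates changes of low genes. p-values are two-sided and adjusted over all genes tested. The procedure was tested on simulated data, where it recovered most changes of 2-fold or more but made more wrong calls than the threshold of 0.05 allows for. Identity was counted over aligned bases (Biopython 1.88). Other values used Python 3.11.15, pandas 2.3.3, numpy 2.4.6 and scipy 1.17.1, and plots matplotlib 3.10.9.

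The members and lists were chosen with earlier results of these data known. Named genes were all members, other Fbxw genes and Btrc, Skp1, Cul1, Rbx1, Fbxo5, Fbxo43, Fbxo30, Fbxo34, Skp2 and Ccnf, up to 6 called genes of each list, called neighbours, cell type markers and the 5 nearest profiles. Nme6 and Gm42756 were named after their values were seen, and the E-box form CAGCTG and the shared promoter runs were taken from the promoters of the members. Alternatives were a pseudocount of 0.1 or 1, no filter, a filter at a mean of 5 FPKM, scaling by the median gene, quantile normalization, eBayes without the trend, a replicate block, leaving out each library, and limma voom on the recovered read pairs (total or median scaling). The length of the canonical transcript was an alternative chosen after seeing the data. The protocol text of the labels names 3 samples per group, whereas the sample titles name 2 per group, and all 4 titled samples were analysed here.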

Additional observations from a re-analysis of the deposited data

How the results depend on the processing

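In 3 of 14 alternatives (all listed genes, no variance trend, without NSN replicate 1) no gene at all was called, so a count of 0 Fbxw genes says nothing there. In 10 of the other 11 it was also 0, and it was 1 (Fbxw15) with quantile normalization. The share of all genes called was 27.1% with the filter at 5 FPKM, 19.8% with voom and 14.7% with voom and median scaling. It was 3.62% with the replicate block and lower still by limma under median scaling or quantile normalization. A 0 of 10 says less at such low shares, and little where a library was left out and its group had a lone library. Of the 14, 4 (all listed genes, the filter at 5 FPKM, no variance trend, the replicate block) leave each difference as it is by construction. Of 100 differences of single genes under the other 10, 87 kept their sign and their side of the threshold, 1 came past the threshold and 12 changed sign, 8 of them with the 2 median scalings, which shift all genes nearly alike, and 4 without a library. The sign turned with median scaling for Fbxw18 (-0.13), Fbxw20 (-0.0264), Fbxw22 (-0.15) and Fbxw24 (-0.10), and to the same values with voom and median scaling. Without a library the differences ranged from -0.0144 to 0.0673 for Fbxw18, from -0.055 to 0.0697 for Fbxw22 and from -0.0112 to 0.12 for Fbxw24, negative for each without SN replicate 1 and for Fbxw22 also without NSN replicate 1. Where a library was left out, the lone library of its group was assumed to vary like the other group.

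The number of all genes called, 926, was 0 with all listed genes (4092 at an unadjusted p under 0.05), 1496 with the filter at 5 FPKM, 257 with median scaling (78 higher, 179 lower), 230 with quantile normalization (74 higher, 156 lower), 0 without a variance trend (3449 unadjusted), 2310 with voom and 1715 with voom and median scaling (752 higher, 963 lower). It ranged from 0 (without NSN replicate 1) to 1685 (without NSN replicate 2), with 148 without SN replicate 1 and 11 without SN replicate 2. In the same order, the number of SCF partners called, 5, was 0, 12, 2, 1, 0, 13 and 8, and the genes called were not the same throughout. The 2 called F-box genes were 0, 3, 0, 0, 0, 7 and 8, and 0 to 4 without a library. The cause was not tested.

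With the replicate block, 422 genes (266 higher, 156 lower), 0 Fbxw genes, 1 SCF partner and 2 F-box genes were called. The deviations of same-numbered libraries correlated at -0.07 across genes, which are not independent, and whether such libraries share an animal or a day is not stated.

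With 2 libraries per group, an exact permutation test of SN against NSN cannot give a two-sided p under 0.333. No exact test could thus pass the threshold, and calls rest on the spread that limma shares across genes. On the deposited scale the intervals of 7 members reached past a fold of 1.2, so differences of that size could not be resolved for them. Counting error was at most 1.04% for each member, while the error from sequence shared by Fbxw14 and Fbxw28 could not be measured. The level of Fbxw28 would be 2958 FPKM in place of 2403 on the length of the canonical transcript, an alternative chosen after seeing the data.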
